A study of Mus musculus with 1 sample.

Results

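Glycolysis splits glucose into pyruvate in the cytosol, and pyruvate is then either reduced to lactate or carried into mitochondria, oxidised to acetyl-CoA by the pyruvate dehydrogenase (PDH) complex and burned in the citric acid cycle. Many of these steps can be run by several isozymes, which are products of different genes with different tissue preferences. In brain, astrocytes are known for active glycolysis and lactate release, and aldolase C (Aldoc) is a familiar astrocyte enzyme. The levels of 45 genes of these pathways were examined in mixed glia, chosen by name as rows whose gene symbol equalled a listed enzyme. All 45 were found among the 23282 rows of the table, each in a single row.

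The study treated glia with inhibitors of the kinase SGK1, and the data examined here were 1 control RNA-seq library. The cells were mixed glia cultured from the ventral midbrain of outbred ICR(CD-1) mice at postnatal day 5, expanded in serum-containing medium and replated. The value column carried DMSO, the vehicle, in its name, and the sample itself was titled as a control. The treatment notes also mention toxins, and whether the control received any is not given in the sources used here. How many pups contributed is not given in the sources used here. Inhibitor-treated glia were not analysed here, so no value below is a treatment effect, and with a single library none has an error between cultures.

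Values were whole numbers on the read-count scale. A longer transcript yields more reads at equal abundance, so genes were compared with each other on a per-length level, in which each value was divided by the length of the gene's annotated exons and scaled so that levels over all rows with a length had a fixed sum, as on the TPM scale of RNA-seq. A value of 10 or more counted as detected, which 67.2% of rows reached, and the median per-length level of the 15478 detected rows with a length was 9.65. The choice of length was the main uncertainty of this scale. With the longest coding transcript in place of all annotated exons, the level of a member was multiplied by between 0.713 and 2.46, so the values under both lengths are given where they bear on an order of isozymes.

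Markers of the labelled cells were present. Per-length levels were 385 for the astrocyte intermediate filament gene Gfap and 76.3 for the water channel gene Aqp4, and they were 513 for Csf1r and 2956 for C1qa, both genes of microglia. All 6 astrocyte and all 6 microglia markers were detected, with medians of 45.6 and 334. The 5 oligodendrocyte markers (median 9.76) and the 5 mesenchymal markers (median 51.1) were detected as well. Only 3 of 5 neuronal and 2 of 4 endothelial markers were, at medians of 0.324 and 0.349. In such a bulk library, fewer cells of a type and less RNA per cell cannot be told apart.

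All 45 enzyme genes were detected, and 41 of them lay above the median level of detected rows. Together they held 1.07% of the sum of values. The 20 glycolytic enzymes had a median per-length level of 138, against 88.3 for the 14 citric acid cycle enzymes and 21.5 for the 9 genes at the pyruvate branch point. Glycolytic genes were also the more uneven group. Their levels ran from 3.37 for Pgam2 to 1442 for Aldoa, a 428-fold range, whereas the citric acid cycle genes ran from 18.7 for Suclg2 to 251 for Idh2, a 13.4-fold range. The 4 members below the median of detected rows were Pgam2, Pdk1, Pfkfb2 and Eno3, at levels between 3.37 and 6.72.

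**Figure D1:**
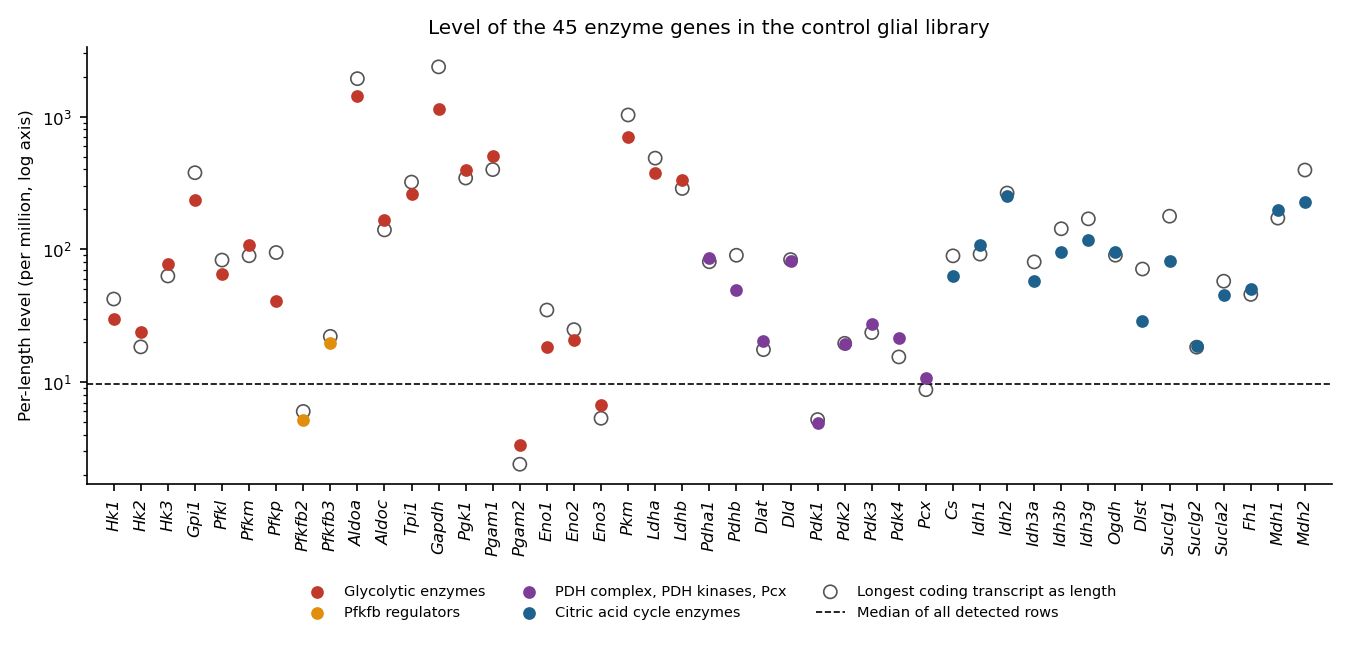
Per-length level of each of the 45 enzyme genes (log axis, TPM-like scale) in the control library, coloured by part of the pathway; open circles give the level when the longest coding transcript is the length, and the dashed line is the median of detected rows (9.65). Glycolytic genes span from 3.37 to 1442, and all 14 citric acid cycle genes lie above the line.

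Hexokinase, which traps glucose as glucose 6-phosphate, had Hk3 as its highest isozyme per length. Hk3, whose product is known mainly from myeloid and other blood cells, had a value of 3015 and a per-length level of 77.2, or 59.1% of the hexokinase total. Hk1, the common hexokinase of brain, had a value of 2687 and a level of 29.7. Hk2, the inducible isozyme of muscle and growing cells, had a value of 1509 and a level of 23.8. Hk3 was therefore 2.60-fold above Hk1 and 3.24-fold above Hk2 per length. The lead over Hk1 shrank to 1.49-fold with the longest coding transcript and to 1.12-fold in undivided values, because the annotated exons of Hk1 span 8532 bases and those of Hk3 only 3682. Hk3 was thus the higher under each of these scales, by an amount that depended on length, and it stayed 2.00-fold above Hk2 even without division. Microglial markers were high in the same library, and their part in the Hk3 level was not tested. Exons of Hk3 overlap Unc5a on the opposite strand, and those of Hk1 overlap Hk1os.

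Gpi1, the isomerase that follows hexokinase, stood at a value of 16216 and a level of 237. Phosphofructokinase, the main control point of glycolysis, was shared among all 3 of its isozymes. The muscle-type gene Pfkm had a value of 3831 and a level of 108, the liver-type gene Pfkl a value of 4607 and a level of 65.0, and the platelet-type gene Pfkp a value of 5834 and a level of 41.0. Their order could not be fixed. Pfkp was lowest per length of all annotated exons, which span 13401 bases, but with the longest coding transcript the levels were 94.5 for Pfkp, 89.4 for Pfkm and 83.0 for Pfkl. Of 5 skeletal muscle markers, 4 were detected, with per-length levels from 0.623 for Myh1 to 12.1 for Acta1, and Ckm, at a value of 1, was not. The part of muscle cells in the levels of Pfkm and the other muscle-type isozymes was not tested. Pfkp exons overlap Pitrm1 on the opposite strand, and Pfkm exons overlap genes on both strands.

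The genes of enzymes that make and break fructose 2,6-bisphosphate, the activator of phosphofructokinase, were each lower in level than every phosphofructokinase gene. Pfkfb3, the strongly activating form, had a value of 1577 and a level of 19.7, which was 3.83-fold above that of Pfkfb2, at a value of 395 and a level of 5.13. Pfkfb2 exons overlap genes on both strands. The relatives Pfkfb4 and Pfkfb1, which were no members, had levels of 6.69 and 0.657.

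Aldolase was the step with the highest summed level, and it was carried by Aldoa, the ubiquitous and muscle form. Aldoa had a value of 44547 and a level of 1442, above 99.4% of detected rows. Aldoc, the brain form, had a value of 5805 and a level of 168. Aldoa was 8.60-fold above Aldoc, and the ratio was 13.8 with the longest coding transcript and 7.67 in undivided values. Aldoc nevertheless exceeded 94.8% of detected rows.

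The middle of the pathway has no isozyme pair among the members until phosphoglycerate mutase. Triosephosphate isomerase (Tpi1) had a value of 7680 and a level of 263. Gapdh, the dehydrogenase that first yields NADH, had the highest value of any member, 50116, and a level of 1143. Phosphoglycerate kinase (Pgk1), which makes the first ATP, had a value of 9358 and a level of 393. The testis-specific partners Gapdhs and Pgk2 had values of 14 and 0. Phosphoglycerate mutase was the most one-sided step. Pgam1, the brain form, had a value of 10538 and a level of 501, and Pgam2, the muscle form, had a value of 30 and a level of 3.37, so Pgam1 held 99.3% of the step.

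**Figure D2:**
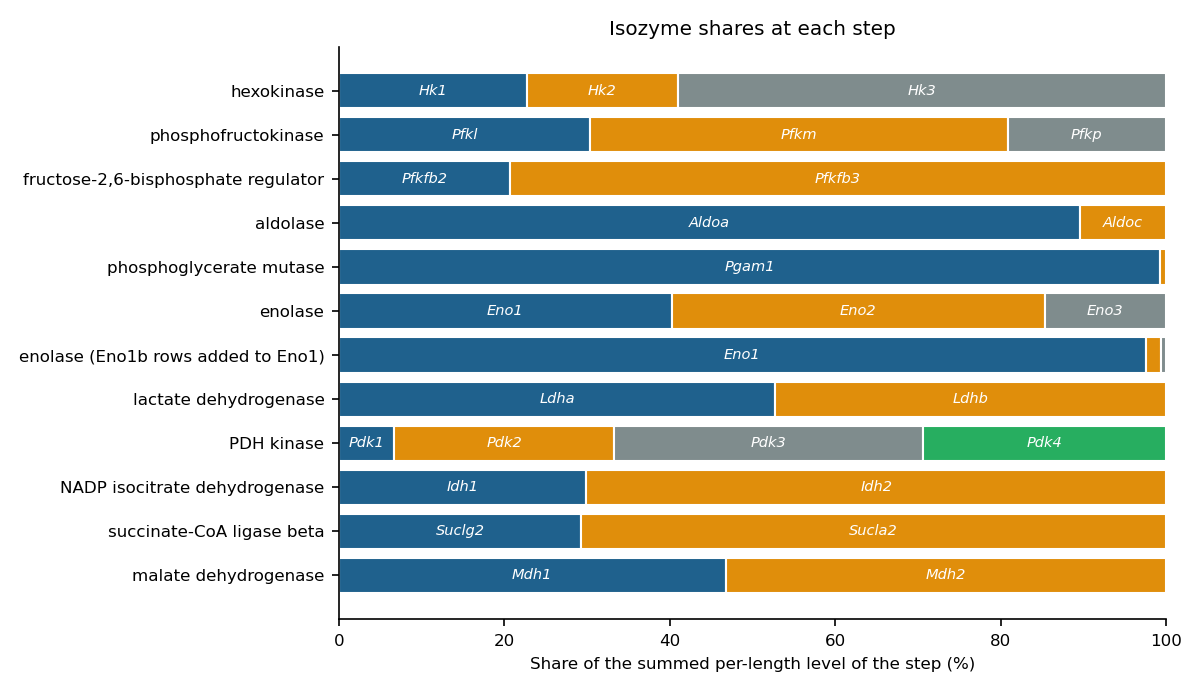
Share (%) of the summed per-length level that each isozyme held at the 11 steps with alternative isozymes (enzymes built from several different subunits are not drawn), with enolase drawn a second time after both Eno1b rows were added to Eno1. Phosphoglycerate mutase (99.3% Pgam1) and aldolase (89.6% Aldoa) are one-sided, while lactate dehydrogenase (52.8% Ldha) and malate dehydrogenase (53.3% Mdh2) are nearly even.

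Enolase was the step at which the table itself mattered most. As deposited, Eno1, the ubiquitous enolase, had a value of 1052 and a level of 18.4, Eno2, the neuron-specific form, had a value of 1032 and a level of 20.7, and Eno3, the muscle form, had a value of 124 and a level of 6.72. Taken alone, these would make enolase the lowest step of glycolysis, with a summed level of 45.8, and would set Eno2 level with Eno1. A further symbol, Eno1b, which is annotated as a retrogene copy of Eno1, occurred in 2 rows. One held 46543 and directly followed the Eno1 row, and the other held 14676. These rows were examined after their values were seen. Of the 62271 in Eno1 and Eno1b together, the Eno1 row held 1.69%.

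Sequence bears on how these rows can be read. Of all 100-base windows of the longest coding Eno1 transcript, 59.0% occurred without mismatch in a transcript of another annotated gene, and 58.6% occurred in Eno1b. A read of that length from most of the transcript could therefore not be assigned to one of them by sequence. With both Eno1b rows added, Eno1 reached a level of 1093, a 59.3-fold rise, and was 52.8-fold above Eno2. Per length of all annotated exons this made it the third of the 45 genes, after Aldoa and Gapdh. The rank depended on length, because in undivided values the combined 62271 exceeded Gapdh (50116) and Aldoa (44547). Whether the Eno1b rows hold reads from Eno1 was not tested. The Eno1 value, and with it the order of Eno1 and Eno2, should be taken as uncertain.

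**Figure D3:**
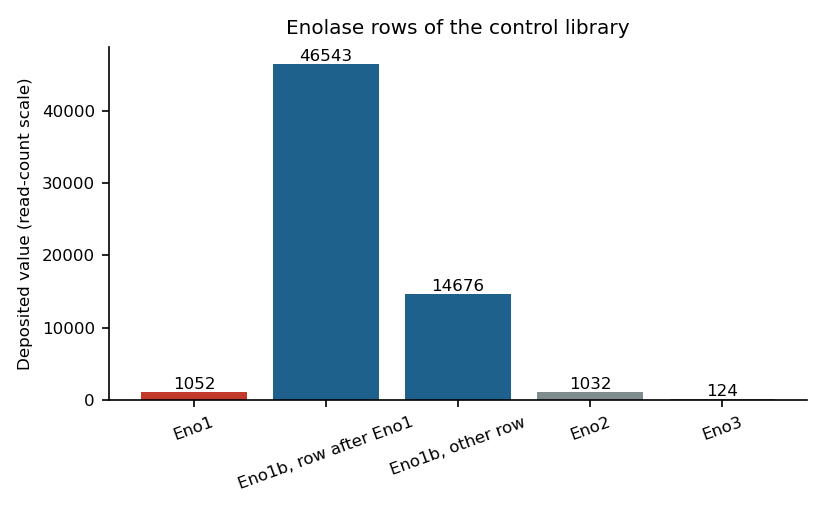
Deposited values (read-count scale, from 0) of the enolase rows in the control library: Eno1, the Eno1b row that directly follows it, the other Eno1b row, Eno2 and Eno3. The rows of Eno1b, 46543 and 14676, are both far above those of Eno1 (1052) and Eno2 (1032).

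Pyruvate kinase of the Pkm gene had a value of 37243 and a level of 702. Values were per gene, so the M1 and M2 splice forms of Pkm were not resolved, and its liver and red-cell relative Pklr was at 17. Lactate dehydrogenase was divided almost evenly per length. Ldha, whose subunit is favoured in tissues that produce lactate, had a value of 13141 and a level of 374, and Ldhb, whose subunit is favoured in tissues that consume it, had a value of 5577 and a level of 335. Their ratio was 1.12 per length of all annotated exons, 1.69 with the longest coding transcript and 2.36 in undivided values. Ldha was the higher under each of these scales, but by an amount that depended on length. Testis-specific Ldhc was listed at 0.

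Summed over isozymes, the levels of the glycolytic steps rose from 131 for hexokinase to 214 for phosphofructokinase, 237 for Gpi1 and 263 for Tpi1. They continued with 393 for Pgk1, 504 for phosphoglycerate mutase, 702 for Pkm, 709 for lactate dehydrogenase, 1143 for Gapdh and 1610 for aldolase. Aldolase was 12.3-fold above hexokinase. With the longest coding transcript hexokinase was again the lowest of these 10 steps, at 123, but Gapdh at 2370 passed aldolase at 2071. Enolase is left out of this order for the reason given above.

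Copies elsewhere in the genome also bear on other glycolytic members. At 100 bases, 15 of the 45 members shared at least 1 window with a transcript of another gene, and 4 shared more than 25%, namely Gapdh (78.0%), Pgk1 (67.0%), Eno1 and Pgam1 (39.7%). At 50 bases 21 members did, and the share was 34.4% for Pkm and 30.3% for Pdhb, but 0.255% for Eno2. All 14 citric acid cycle genes except Suclg2 (11.9%) shared no 100-base window. Some of the sharing was with genes whose exons overlap the member, as for Pfkp with Pitrm1 (16.0%) and Pfkfb2 with Gm29427 (23.9%). The genes that shared most with Pgk1 and Pgam1, Pgk1-rs7 and Pgam1-ps2, had no row under that symbol. Of 5 annotated pseudogenes that had a row and resembled a member, 3 resembled Gapdh, and the separate row of Gm12070 had a value equal to 22.4% of that of Gapdh. How reads with several matches were counted is not given in the sources used here.

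**Figure D4:**
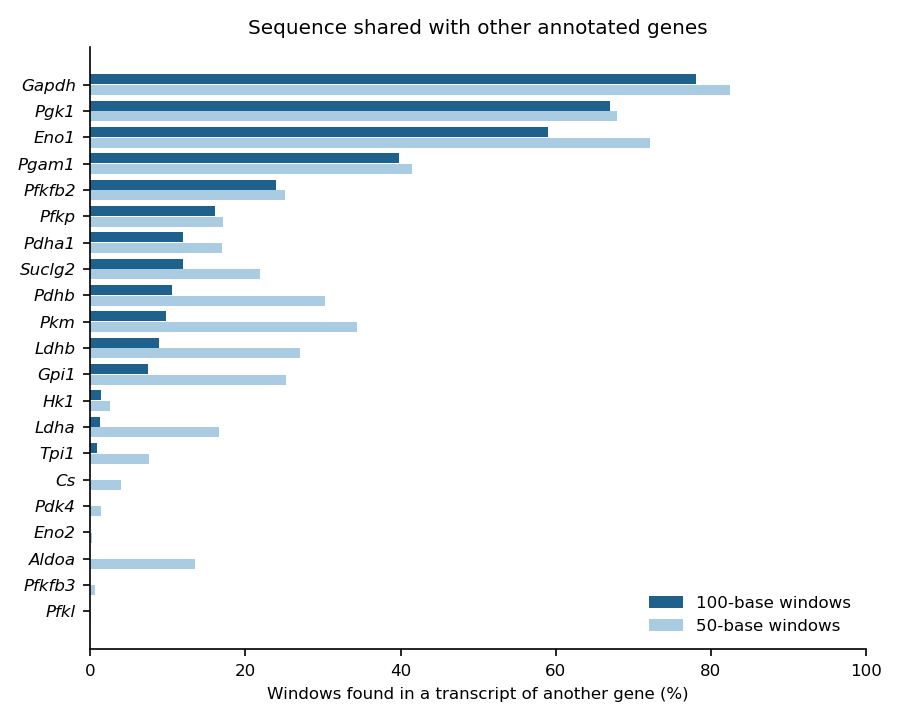
Share (%) of all 100-base and 50-base windows of a member's longest coding transcript that occur without mismatch, on either strand, in a transcript of another annotated gene; the 21 members with any such window are shown. Gapdh (78.0%), Pgk1 (67.0%), Eno1 (59.0%) and Pgam1 (39.7%) exceed 25% at 100 bases.

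At the entry to mitochondria, the PDH complex turns pyruvate into acetyl-CoA. Pdha1 and Pdhb, which encode the subunits of its first enzyme, had values of 3415 and 2031 and levels of 86.2 and 49.6. Dlat, the acetyltransferase core, had a value of 1053 and a level of 20.3. Dld, which the complex shares with other dehydrogenases, had a value of 3167 and a level of 81.0. Dlat was thus the lowest of the 4 subunits, 4.24-fold below Pdha1, and remained the lowest with the longest coding transcript, at 17.5. The accessory gene Pdhx, which tethers Dld, was close to Dlat at 17.6. The carrier genes Mpc1 and Mpc2, which bring pyruvate in, had levels of 107 and 36.8.

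The PDH kinases switch the complex off by phosphorylation, and the members of this family were mixed, with only Pdk1 below the median of detected rows. Pdk3 had a value of 742 and a level of 27.3, Pdk4 a value of 801 and a level of 21.5, and Pdk2 a value of 654 and a level of 19.5. Pdk3 was 1.27-fold above Pdk4 and Pdk4 was 1.10-fold above Pdk2, which is within the uncertainty of length. Pdk1, the form known for induction in hypoxia, was lower, with a value of 402 and a level of 4.87, which was 5.61-fold below Pdk3. That ratio was 4.52 with the longest coding transcript and 1.85 in undivided values. The opposing phosphatase genes Pdp1 and Pdp2 had levels of 21.1 and 1.84. Pyruvate carboxylase (Pcx), which refills the cycle and is known in brain as an astrocyte enzyme, had a value of 540 and a level of 10.7, near the median of detected rows and 8.05-fold below Pdha1.

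In the citric acid cycle, citrate synthase (Cs) had a value of 3888 and a level of 63.4. Isocitrate dehydrogenase comes in NADP-dependent and NAD-dependent forms. Idh2, the mitochondrial NADP form, had a value of 6899 and a level of 251, the highest of the cycle per length of all annotated exons. That rank depended on length, because Mdh2 was higher in undivided values and with the longest coding transcript (396 against 266). Idh2 was 2.34-fold above Idh1, the cytosolic NADP form, at a value of 3152 and a level of 107. Idh2 stayed between 2.19-fold and 2.89-fold above Idh1 under the other length settings. The NAD-dependent enzyme of the cycle is built from 3 different subunits, and Idh3g, Idh3b and Idh3a had values of 3362, 3436 and 3087 and levels of 117, 94.6 and 57.4. The regulatory gene Idh3g was 2.05-fold above the catalytic gene Idh3a per length, although their values differed by a ratio of only 1.09.

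Ogdh, the first enzyme of the oxoglutarate dehydrogenase complex, had a value of 5545 and a level of 95.8, and its succinyltransferase core Dlst had a value of 2922 and a level of 28.8. The low level of Dlst depended on its 9559 bases of annotated exons, and with the longest coding transcript it was 71.0 against 90.2 for Ogdh. Succinate-CoA ligase pairs a common alpha subunit with a beta subunit that sets whether ATP or GTP is made. The alpha gene Suclg1 had a value of 4016 and a level of 82.0. The ATP-forming beta gene Sucla2 had a value of 1908 and a level of 45.1, and the GTP-forming beta gene Suclg2 a value of 917 and a level of 18.7, so that Sucla2 held 70.7% of the beta total. It was 2.41-fold above Suclg2 per length and at least 2.08-fold above it under the other settings.

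The 4 succinate dehydrogenase genes, which were no members, ran from 73.8 for Sdhc over 135 for Sdha and 152 for Sdhd to 201 for Sdhb. Fumarase (Fh1) had a value of 1794 and a level of 49.8. Malate dehydrogenase was nearly even between compartments, with Mdh2 in mitochondria at a value of 8578 and a level of 227, and Mdh1 in the cytosol at a value of 5427 and a level of 199. Together they carry reducing power across the mitochondrial membrane. Their ratio was 1.14 per length of all annotated exons and 2.30 with the longest coding transcript.

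Of the 11 steps with several isozymes, 3 had a leading gene with 75% or more of the step, namely phosphoglycerate mutase, aldolase and the Pfkfb pair (79.3% Pfkfb3). Enolase joined them when the Eno1b rows were added, and the succinate-CoA ligase beta pair did with the longest coding transcript (75.9% Sucla2). Of 10 tissue-restricted isozymes of these pathways, not all of them at those 11 steps, 4 were detected, against 67.2% of all rows. Ldhal6b and Ogdhl were highest, with levels of 7.96 and 4.66, and Hkdc1, Pgk2, Ldhc and Pdha2 were among those listed at 0.

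The members lie on 15 chromosomes. Glycolytic promoters are known for hypoxia response motifs such as ACGTG, bound by HIF1, whose subunit gene Hif1a had a level of 67.8 here. In the 250 bases upstream of RefSeq transcription starts (GRCm38.p6), listed for 44 of the 45 members, the letters ACGTG were searched on both strands, so that the palindrome CACGTG counts 2 times. They occurred in 26 of 67 promoters of members (38.8%), in 10 of 31 of glycolytic members (32.3%), and in 16.6% of all 32851 listed promoters. Listed windows of a gene can overlap and share a site, as do some of the 6 of Ogdh, so these are not all separate promoters. Counted by gene, where any listed window sufficed, the motif was found upstream of 17 members (38.6%) and of 18.5% of all listed genes. Neither base composition nor the number of windows per gene was matched, so this is a description only, and it says nothing of whether HIF1 bound there.

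The lactate dehydrogenase pair is shown because its genes differed in these letters. They were nearly equal per length of all annotated exons, but Ldha was 2.36-fold the higher in undivided values. The upstream windows are chr7:46845554-46845803 (plus strand) for Ldha and chr6:142507958-142508207 (minus strand) for Ldhb, each printed 5′ to 3′ up to the base before the start, with the motif in capitals. Ldha has another listed start, whose window lacks these letters.
Ldha: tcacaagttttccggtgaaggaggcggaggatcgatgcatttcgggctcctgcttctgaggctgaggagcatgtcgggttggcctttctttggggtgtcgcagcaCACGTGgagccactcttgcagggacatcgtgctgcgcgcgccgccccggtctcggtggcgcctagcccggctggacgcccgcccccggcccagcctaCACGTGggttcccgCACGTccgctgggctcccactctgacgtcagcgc
Ldhb: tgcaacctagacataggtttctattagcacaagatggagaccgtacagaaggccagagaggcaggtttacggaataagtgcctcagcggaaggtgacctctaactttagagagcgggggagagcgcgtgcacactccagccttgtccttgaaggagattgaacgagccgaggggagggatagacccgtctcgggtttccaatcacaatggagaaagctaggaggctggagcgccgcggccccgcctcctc
The Ldha window held 5 matches to ACGTG, 4 of them from a pair of CACGTG palindromes, and the Ldhb window held 0. Only ACGTG was searched, not near variants such as GCGTG, which the Ldhb window does hold.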

How the data were processed

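RNA-seq was analysed for 1 control library of mouse ventral midbrain glia. The values the authors deposited were whole numbers per gene, and because no source gives their normalisation the unit was recorded as a score rather than as counts. According to the methods, reads were trimmed for quality, mapped to GRCm38/mm10 with STAR and counted on exons of RefSeq genes with HTSeq-count. The submitters' processing notes name TopHat and edgeR, without roles. Read length, sequencing depth, strand setting and the treatment of multi-mapped reads are not given in the sources used here, so no interval or detection floor is printed.

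Lengths came from GENCODE M21 (GRCm38), matched by symbol or older symbol for 98.3% of rows. This is not the annotation used for counting, so lengths, and per-length levels with them, are approximate. The per-length level was the value per kilobase of merged exons, scaled to a fixed sum as for TPM. The calculation was run on values simulated from the same lengths. That checks the arithmetic only and cannot bear on the choice of length or on shared reads. Pseudogenes were assigned to a member by BLAST 2.17.0 (90% identity or more over at least 200 bases). Python 3.11.15, numpy 2.4.6 and pandas 2.3.3 were used.

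The members and lists were chosen with earlier results of these data known. All members are named. Of the other pathway genes, those of steps without a member, and otherwise the 2 highest of a list and genes at 0, are named, and any further gene was named after its value was seen. Some genes under this rule are not reported here. With 1 library no test was made. Alternatives were other detection minima, other lengths, a sum without the 10 highest rows, added pseudogenes and, chosen after seeing the data, added Eno1b rows.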

Additional observations from a re-analysis of the deposited data

How the results depend on the processing

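All 45 members were detected at a minimum of 1 or 3, and 44 at a minimum of 100, where Pgam2 was lost. The share of all rows detected was 67.2% at the minimum of 10 and is not reported here for the other minima. Under the other lengths, the sum without the 10 highest rows, added pseudogenes and added Eno1b rows, the glycolytic median stayed between 117 and 206 and the citric acid cycle median between 88.3 and 123, with the glycolytic one higher each time. Steps led by 75% or more numbered 3 or 4. The leading and the next isozyme of a step were fixed as ranked per length of all annotated exons, and their ratio was checked under another length or none. Of 22 such checks, 10 stayed within 1.5-fold, 8 kept their direction but moved by more, 3 of these towards equality, and 4 reversed. These checks do not count another isozyme taking the lead, as Pfkp did with the longest coding transcript and in undivided values. Adding pseudogene or Eno1b rows touches few genes and left 20 of 22 ratios identical by construction. The log2 ratio of Eno2 over Eno1, 0.17 as reported, was -0.49 with the longest coding transcript, -0.0277 in undivided values and -5.72 with the Eno1b rows added. In undivided values, Pfkm over Pfkl became -0.27 and Pdk3 over Pdk4 became -0.11. The cause of these shifts is the length or row that was exchanged. No paired analysis was possible because there is 1 library. The lack of a replicate limits each value to this library.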

Other observations

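Branches off the pathway were also measured. All 7 pentose phosphate genes, which make NADPH and ribose from glucose 6-phosphate, were detected, with a median per-length level of 84.1. Taldo1 and Tkt, the sugar-shuffling enzymes of the branch, were highest at 321 and 125. Of 6 gluconeogenic genes 3 were detected, and the highest were G6pc3 at 24.4 and Pck2 at 6.60, while Fbp1 and G6pc were listed at 0. Bpgm, which makes 2,3-bisphosphoglycerate, had a level of 55.6, and the phosphatase gene Tigar was at 11.5. Acly, which returns citrate carbon to acetyl-CoA in the cytosol, was at 81.6, and the malic enzyme gene Me1 was at 45.1. Among 5 regulators, all detected, Hif1a and Myc were highest at 67.8 and 35.5.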
